A study of Mus musculus with 2 samples.

Results

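The Slc25 genes encode the mitochondrial carriers, which move nucleotides, phosphate, organic acids, amino acids and cofactors across the inner mitochondrial membrane. The members described here are all protein-coding genes of the gene tables whose symbol is Slc25a followed by digits, which gave 47 of the 21474 protein-coding genes matched to the annotation. They lie on 19 chromosomes, and 4 of them are on chromosome X. RNA sequencing was done on 2 libraries of newborn (postnatal day 0) mouse heart, strain B6NCrl, with 13 pg of RNA over 200 nt in each, an amount that the labels equate with 1 cell. Heart 1 is replicate 1 and came from pup 1, heart 2 is replicate 2 and came from pup 3, and no sex was recorded. There is no treatment, mutant or control, both libraries carry 1 donor identifier, and their comparison shows how alike the carriers were read in separate pups at this input. The assay is titled single-cell, but the labels name RNA of whole hearts and no sorted cell, so a value is that of all cells of the heart together.

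A carrier is built from a repeated module that folds into a small barrel of membrane helices, opens alternately to either side of the membrane, and usually exchanges one substrate for another. The ADP/ATP carriers bring ADP in and send ATP out, and the phosphate carrier supplies the other substrate of ATP synthase. Heart muscle turns to fatty acids as its main fuel after birth, and further carriers bring in acylcarnitines and run the malate-aspartate shuttle, which passes the reducing power of cytosolic NADH to the matrix.

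The library of heart 1 held 40648662 expected counts and that of heart 2 held 33173354, and the members took 526642 and 445476 of them. Levels are TPM, transcripts per 1000000, over mouse genes, so that gene length is divided out, and an error is the SD over the 2 libraries, which measures only the spread between these samples. A gene with 0 counts may still hold up to 3 counts by counting error, which is 0.0756 counts per 1000000 mouse counts in heart 1 and 0.0916 in heart 2, and amplified copies of 1 molecule are not separated. All 5 cardiomyocyte markers were read, with a summed level of 30939 TPM in heart 1 and 43321 TPM in heart 2. Of 8 erythroid markers 5 were read in both libraries, with sums of 5668 and 5572 TPM and with Epb42 at 0 counts, of 4 fat markers 1 (Cidea), of 5 skeletal muscle markers 1 (Acta1), and of 4 liver markers none, where Alb was at 0. In RNA from whole tissue, fewer cells of a type and less RNA per cell cannot be told apart.

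Sequences are shown for the genes on which the levels turn, as printed in the GENCODE M21 transcripts on the GRCm38 (mm10) assembly and read 5′ to 3′ along the transcript. Slc25a4 encodes the heart and muscle type of ADP/ATP carrier and Slc25a5 the type found in most dividing cells. Their first coding exons are given to show how far these close relatives can be told apart by reads, with capitals for the 25 of 111 bases at which they differ. That of Slc25a4 is at chr8:46210812-46210922 on the minus strand and that of Slc25a5 at chrX:36795731-36795841 on the plus strand.
Slc25a4: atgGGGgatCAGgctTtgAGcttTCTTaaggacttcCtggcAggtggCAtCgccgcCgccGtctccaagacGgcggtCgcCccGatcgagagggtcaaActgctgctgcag
Slc25a5: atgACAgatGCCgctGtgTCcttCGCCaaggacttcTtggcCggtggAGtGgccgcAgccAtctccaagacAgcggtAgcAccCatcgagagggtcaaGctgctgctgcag
Slc25a3 encodes the phosphate carrier and holds a pair of alternative coding exons, of which each coding transcript that was compared carries one. Exon A, the heart and muscle form, is at chr10:91122207-91122331 and exon B, the widespread form, at chr10:91121922-91122043, both on the minus strand. They have 80 identical bases, 63.5% of the aligned length, and capitals mark the bases that differ or have no partner.
exon A: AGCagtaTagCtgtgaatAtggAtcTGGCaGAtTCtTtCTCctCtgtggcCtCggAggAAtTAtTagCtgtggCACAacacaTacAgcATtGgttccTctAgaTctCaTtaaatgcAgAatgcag
exon B: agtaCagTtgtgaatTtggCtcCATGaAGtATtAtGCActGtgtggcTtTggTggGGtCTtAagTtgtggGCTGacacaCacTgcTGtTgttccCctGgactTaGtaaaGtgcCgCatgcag

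Of the 47 members 21 (44.7%) were read, that is at 1 TPM or more, in both libraries, beside 28.4% of all protein-coding genes. A further 4 were read only in heart 1 (8.51%, beside 7.56% of protein-coding genes), which were Slc25a28, Slc25a45, Slc25a35 and Slc25a27. Only in heart 2 were 7 more read (14.9%, beside 8.63%), namely Slc25a10, Slc25a26, Slc25a14, Slc25a38, Slc25a25, Slc25a16 and Slc25a29. The other 15 were below 1 TPM in both, and 13 of these had 0 counts in both libraries: Slc25a2, Slc25a18, Slc25a21, Slc25a22, Slc25a30, Slc25a31, Slc25a33, Slc25a37, Slc25a41, Slc25a43, Slc25a47, Slc25a48 and Slc25a54. The other members of that group were Slc25a1, with 1 count in each library, and Slc25a53, with 2 counts in heart 1 and 0 in heart 2. The median of the members' mean levels was 8.07 TPM (quartiles 0 and 21.5), beside 0.0156 TPM for all protein-coding genes. Among genes read in both libraries the medians were 24.2 TPM for the 21 members and 31.1 TPM for the 6105 protein-coding genes.

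**Figure D1:**
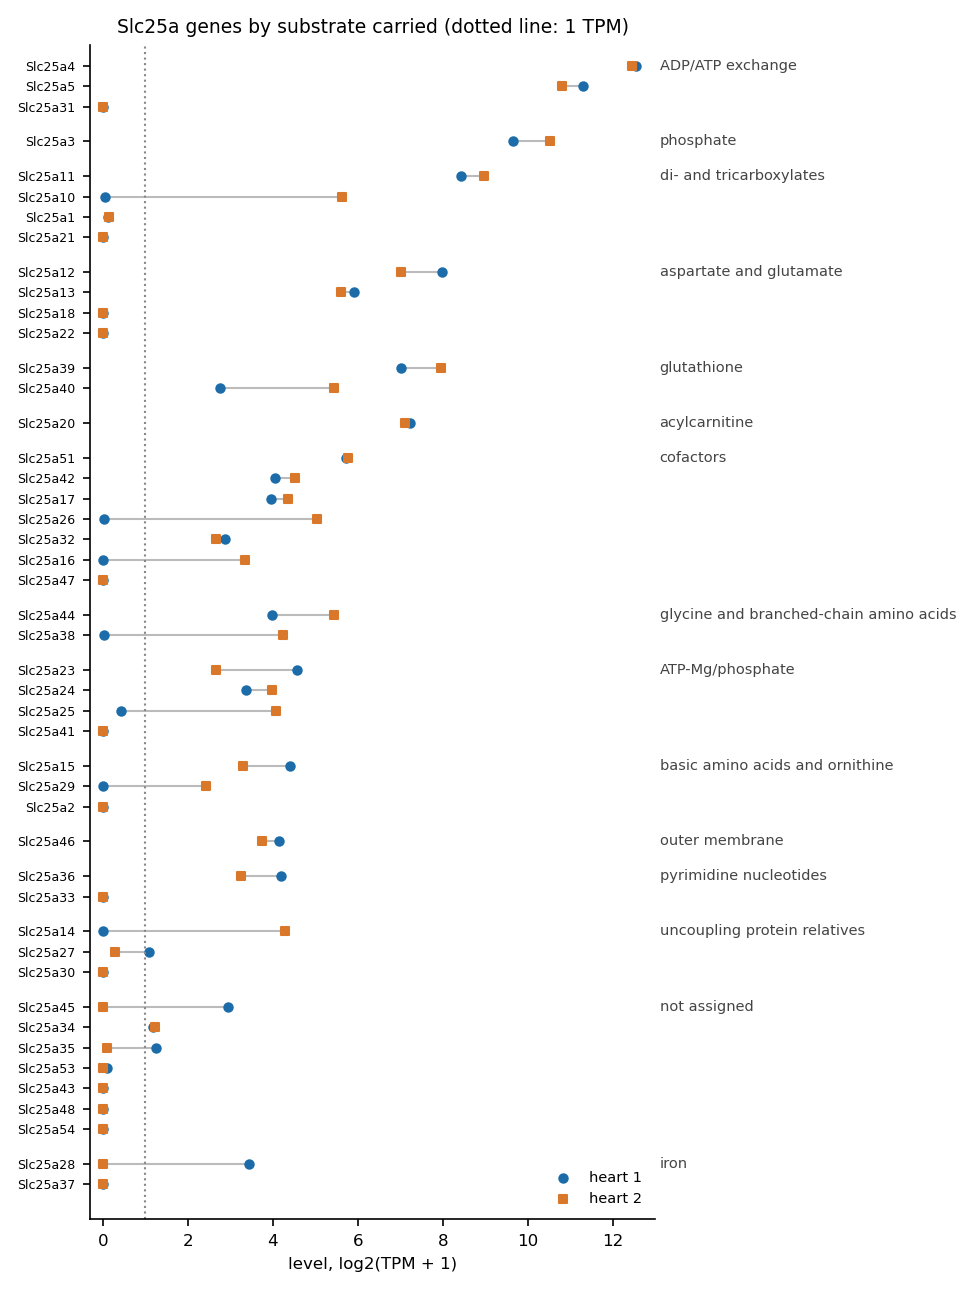
Level of 46 Slc25a genes, as log2(TPM + 1), in heart 1 (circles) and heart 2 (squares), grouped by substrate carried, with a line joining the libraries of a gene and a dotted line at 1 TPM. The ADP/ATP carriers Slc25a4 and Slc25a5 and the phosphate carrier Slc25a3 stand highest, and 11 genes have 1 point on either side of the dotted line.

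The family took 1.05% of all TPM in heart 1 and 1.03% in heart 2, a mean of 1.04% ± 0.00823 (SD, n = 2). Slc25a4 alone made up 57.1% of the family's TPM in heart 1 and 54.6% in heart 2. Together with Slc25a5 and Slc25a3 it made up 88.8% and 86.0%, or 87.4% ± 2.00, which left 11.2% and 14.0% for the other 44 genes. These figures describe a family whose transcripts are concentrated on nucleotide and phosphate exchange. By substrate, the ADP/ATP carriers took 81.1% of the family's TPM in heart 1 and 71.8% in heart 2, and phosphate 7.71% and 14.2%. The carriers of di- and tricarboxylates took 3.30% and 5.28%, those of aspartate and glutamate 2.97% and 1.71%, those of glutathione 1.29% and 2.82%, and that of acylcarnitine 1.43% and 1.33%. The 8 cofactor carriers together took 1.05% and 1.44%. Every other group was under 1% in both libraries. The highest of these by mean, glycine and branched-chain amino acids, took 0.142% in heart 1 and 0.585% in heart 2. In heart 1 several of these groups stood above it, the highest being ATP-Mg/phosphate at 0.307%.

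**Figure D2:**
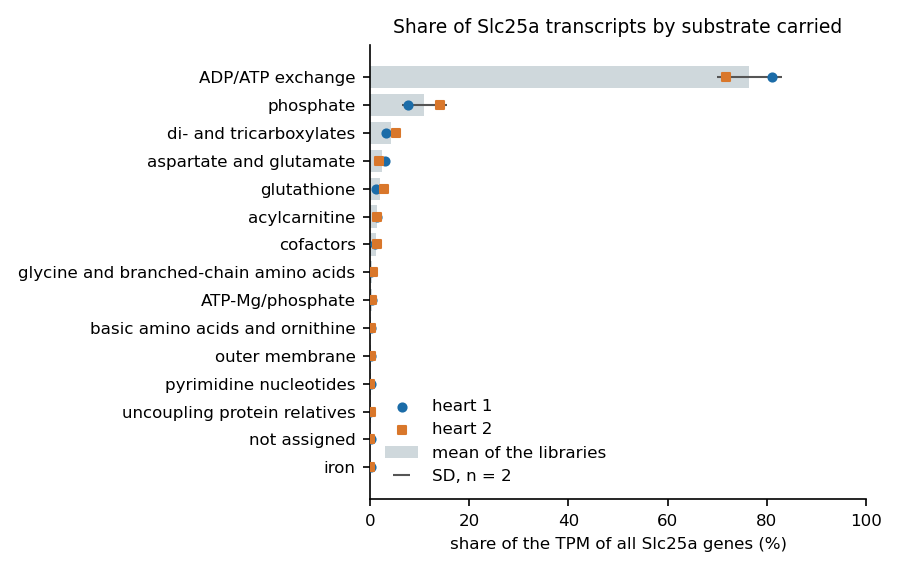
Share of the TPM of all Slc25a genes (percent, horizontal axis) taken by each substrate group, with the mean of the 2 libraries as a bar, the SD as a line, and hearts 1 and 2 as circles and squares. ADP/ATP exchange took 81.1% in heart 1 and 71.8% in heart 2, phosphate took 7.71% and 14.2%, and the remaining groups were each below 6%.

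Slc25a4 (ENSMUSG00000031633, chromosome 8, 46206797 to 46211284, minus strand, mm10) stood at 5972 TPM in heart 1 and 5647 TPM in heart 2, a mean of 5810 ± 230 TPM. Slc25a5 (ENSMUSG00000016319, chromosome X, 36795651 to 36798807, plus strand) had 2504 TPM in heart 1 and 1775 TPM in heart 2, a mean of 2139 ± 515 TPM. The heart type was therefore above the widespread type in both hearts, by 1.46 ± 0.29 on the log2(TPM + 1) scale, or 2.75-fold. Slc25a31, an ADP/ATP carrier known from testis, had 0 counts in both. Allowing for counting error alone, Slc25a4 was at least 98114-fold higher in heart 1 and at least 78704-fold in heart 2, over 3 counts per library. The coding sequences of Slc25a4 and Slc25a5, of 894 nt each, are 77.6% identical, and Slc25a4 shares no stretch of 50 bases with the transcripts of another gene. Slc25a5 shares 46.6% of its 50-base stretches with other genes, among them processed copies of itself, so that its reads are divided by estimation. The 7 annotated pseudogene copies found for Slc25a5 held 6.48 TPM in sum in heart 1 and 5.15 TPM in heart 2, or 0.258% and 0.289% of gene and copies together. The copy nearest in sequence among those with reads, Gm5560 on chromosome 5 at 98.3% identity, had 3.74 and 3.19 TPM.

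Slc25a3 (ENSMUSG00000061904, chromosome 10, 91116574 to 91124059, minus strand) stood at 806 TPM in heart 1 and 1464 TPM in heart 2, a mean of 1135 ± 465 TPM. Heart 2 was higher by 0.86 on the log2 scale. For mouse genes of 1000 TPM or more the SD per library was 0.44. The SD of a difference between the libraries, to which 0.86 compares, is root 2 times that. Its coding transcripts were mostly of the exon A form shown above. Transcripts with exon A held 716 TPM in heart 1 and 1269 TPM in heart 2, and those with exon B 86.6 TPM and 185 TPM. Exon A was thus carried by 89.2% of these transcripts in heart 1 and 87.2% in heart 2, a mean of 88.2% ± 1.38. By expected counts in place of TPM the mean share was 86.1%. Exon A led in both hearts, and its share moved by less than 3 percentage points.

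**Figure D3:**
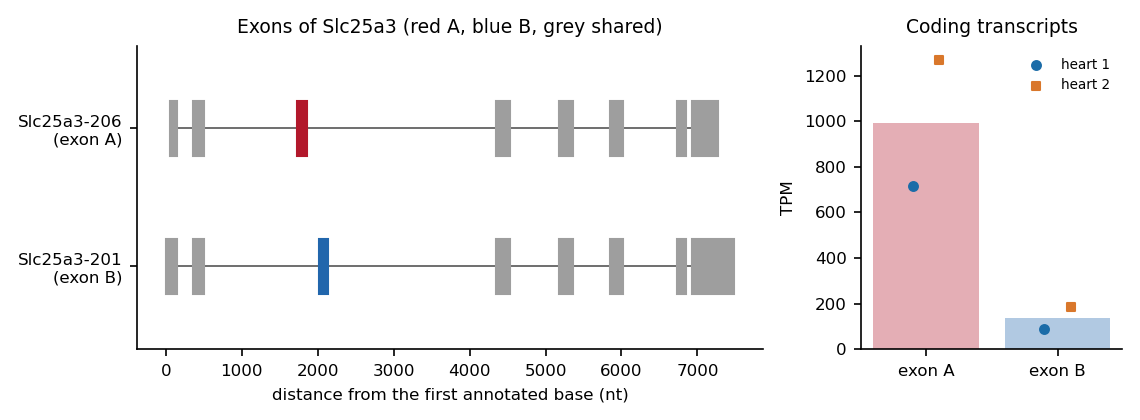
Left, exons of the leading Slc25a3 transcripts with exon A (red) and with exon B (blue), with shared exons in grey, by distance in nt from the first annotated base. Right, TPM of coding transcripts with exon A and with exon B, with bars for the mean and points for heart 1 (715.6 and 86.6 TPM) and heart 2 (1269 and 185 TPM).

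The 2-oxoglutarate/malate carrier Slc25a11 (chromosome 11, 70644196 to 70647479, minus strand), an arm of the malate-aspartate shuttle, stood next in the family. It had 345 TPM in heart 1 and 498 TPM in heart 2, a mean of 421 ± 108 TPM, and 99.1% and 96.8% of it was on the coding transcript Slc25a11-201. It overlaps the opposite-strand gene Rnf167 by 189 nt, which had 56.6 and 33.9 TPM, and the sources give no strand rule for counting. The dicarboxylate carrier Slc25a10 had 0.0417 TPM (1 count) in heart 1 and 48.3 TPM (2523 counts) in heart 2. The citrate carrier Slc25a1, which exports citrate for fatty acid synthesis, had 1 count in each library, or 0.0834 and 0.102 TPM. Slc25a21, the carrier of oxodicarboxylates, had 0 counts in both. Within this group only Slc25a11 was read in both hearts, and the ratio of Slc25a11 to Slc25a10, at 8.37 in heart 1 and 3.34 in heart 2 on the log2 scale, had 1 sign without its mean exceeding 2 SD.

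Both aspartate/glutamate carriers, the calcium-regulated other arm of that shuttle, were read in both libraries. Slc25a12 (Aralar, chromosome 2, 71271063 to 71367749, minus strand) had 252 TPM in heart 1 and 129 TPM in heart 2, a mean of 190 ± 87.0 TPM. Slc25a13 (Citrin, chromosome 6, 6041218 to 6217173, minus strand), the main form in liver, had 58.7 TPM in heart 1 and 48.0 TPM in heart 2, a mean of 53.3 ± 7.57 TPM. With all transcript models of a gene together, Slc25a12 was above Slc25a13 in both, by 1.74 ± 0.48 on the log2 scale or 3.35-fold. Their coding sequences, at 2031 and 2028 nt the longest of the family, are 70.8% identical. Most of the TPM of Slc25a12, 76.6% in heart 1 and 67.3% in heart 2, was given to Slc25a12-207, a model of the nonsense-mediated decay type that lacks a 116-nt exon (chromosome 2, 71333605 to 71333720) of the coding Slc25a12-206. That coding model took 7.50% in heart 1 and 4.55% in heart 2, and the models also end differently, with a last exon of 664 nt in Slc25a12-207 and of 4291 nt in Slc25a12-206. Slc25a12-201, a processed transcript, took 15.7% in heart 1 and 27.6% in heart 2. On coding models the order of the genes was the reverse. Slc25a12-206 had 18.9 TPM in heart 1 and 5.85 TPM in heart 2, and the leading coding model of Slc25a13, Slc25a13-201, had 53.6 and 43.5 TPM. Both glutamate carriers, Slc25a18 and Slc25a22, had 0 expected counts in both libraries, although the deposited posterior mean of Slc25a22 came to 1.68 TPM in heart 1 and 1.96 TPM in heart 2.

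Slc25a20 (chromosome 9, 108662088 to 108684641, plus strand), the carnitine/acylcarnitine carrier that brings fatty acids in for oxidation, was among the most alike of the family. It had 149 TPM in heart 1 and 137 TPM in heart 2, a mean of 143 ± 8.55 TPM, with 99.8% on 1 coding transcript in each. Its relative Slc25a29, a carrier of basic amino acids, had 0 counts in heart 1 and 4.38 TPM in heart 2. The log2 ratio of Slc25a20 to Slc25a29 was 7.23 in heart 1 and 4.69 in heart 2, a mean of 5.96 ± 1.80, and with a pseudocount of 0.1 TPM its mean of 7.74 no longer exceeded 2 SD. The ornithine carrier of the urea cycle, Slc25a15, had 20.2 TPM in heart 1 and 8.82 TPM in heart 2, and the related Slc25a2 had 0 counts. Of the basic amino acid group, 1 gene of 3 was therefore read in both hearts.

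Glutathione, the main thiol of the matrix, is carried by Slc25a39 and Slc25a40, and both were read in both libraries. Slc25a39 (chromosome 11, 102402985 to 102407946, minus strand) had 129 TPM in heart 1 and 249 TPM in heart 2, a mean of 189 ± 84.5 TPM. Slc25a40 had 5.74 TPM in heart 1 and 42.7 TPM in heart 2, a mean of 24.2 ± 26.1 TPM. Slc25a39 was above Slc25a40 in each library, by 4.27 and 2.52 on the log2 scale, a mean of 3.39 ± 1.24. In heart 1 all of the TPM of Slc25a40 was on Slc25a40-202, and in heart 2 90.8% was on Slc25a40-201.

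Among the 8 cofactor carriers 5 were read in both libraries. The NAD carrier Slc25a51 (chromosome 4, 45395923 to 45408766, minus strand) led them with 52.0 TPM in heart 1 and 53.5 TPM in heart 2, a mean of 52.8 ± 1.04 TPM. Its TPM was close in the libraries, but its expected counts were not, at 6761 in heart 1 and 2734 in heart 2, a wider gap than that of the library totals. The leading model was Slc25a51-201, of 4433 nt, in heart 1 (61.6%) and Slc25a51-203, of 1005 nt, in heart 2 (43.1%). TPM divides by length, so its closeness depends on the models to which the reads were given. Slc25a42, which carries coenzyme A, had 15.6 TPM in heart 1 and 22.1 TPM in heart 2, and Slc25a16, linked to the supply of coenzyme A, had 0 counts in heart 1 and 9.11 TPM in heart 2. The peroxisomal carrier Slc25a17 had 14.6 and 19.4 TPM, and Slc25a32, a carrier of folate and FAD, had 6.37 and 5.33 TPM. Slc25a26, the carrier of S-adenosylmethionine, had 0.0208 TPM (1 count) in heart 1 and 32.1 TPM in heart 2. It overlaps the opposite-strand gene Lrig1 by 144 nt, which had 0.0104 TPM in heart 1 and 22.6 TPM in heart 2, and the part of that overlap in the value of Slc25a26 was not tested. Slc25a47, known from liver, had 0 counts in both.

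Carriers of ATP-Mg and phosphate, most of them calcium-binding, set the size of the adenine nucleotide pool in the matrix, and 2 of the 4 were read in both libraries. Slc25a23 had 22.5 TPM in heart 1 and 5.36 TPM in heart 2, a mean of 14.0 ± 12.2 TPM. Slc25a24 had 9.25 TPM in heart 1 and 14.8 TPM in heart 2, a mean of 12.0 ± 3.93 TPM. Slc25a25 had 0.333 TPM (34 counts) in heart 1 and 15.8 TPM in heart 2. No order of these 3 held in both libraries, since the log2 ratio of Slc25a23 to Slc25a24 was 1.20 in heart 1 and −1.31 in heart 2, and that of Slc25a25 to Slc25a23 was −4.14 and 1.40. Slc25a41, which lacks the calcium-binding part, had 0 counts in both.

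Amino acid carriers outside the shuttle were low or uneven. Slc25a44, which carries branched-chain amino acids, had 14.8 TPM in heart 1 and 42.7 TPM in heart 2, a mean of 28.7 ± 19.7 TPM. Slc25a38, the glycine carrier of heme synthesis, had 0.0208 TPM (1 count) in heart 1 and 17.8 TPM in heart 2. Alas2, the erythroid enzyme that joins that glycine to succinyl-CoA, had 0 counts in heart 1 and 12.8 TPM in heart 2, whereas the 4 globin genes on the erythroid list were alike in the libraries, at 658 TPM or more in each. The part of erythroid RNA in the value of Slc25a38 was not tested. For iron, Slc25a28 (mitoferrin 2) had 9.85 TPM (450 counts) in heart 1 and 0 counts in heart 2, and Slc25a37 (mitoferrin 1), the form of red cell precursors, had 0 counts in both.

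The pyrimidine nucleotide carrier Slc25a36 had 17.3 TPM in heart 1 and 8.56 TPM in heart 2, a mean of 12.9 ± 6.19 TPM. Its relative Slc25a33 had 0 counts in both. Allowing for counting error alone, Slc25a36 was at least 333-fold higher in heart 1 and at least 140-fold in heart 2, over 3 counts per library. Slc25a46, a relative that sits in the outer membrane and acts in mitochondrial fission, had 16.7 TPM in heart 1 and 12.4 TPM in heart 2. Of the relatives of the uncoupling proteins, Slc25a14 had 0 counts in heart 1 and 18.4 TPM in heart 2, Slc25a27 had 1.11 TPM in heart 1 and 0.225 TPM in heart 2, and Slc25a30 had 0 counts, so that none of the 3 was read in both. Among the 7 members to which no substrate was assigned, Slc25a45 had the highest mean, with 6.74 TPM (405 counts) in heart 1 and 0 counts in heart 2, and Slc25a34 was the only one read in both, at 1.28 and 1.34 TPM. Slc25a35 had 1.39 TPM in heart 1 and 0.0716 TPM in heart 2, and it overlaps the opposite-strand gene Rangrf by 1151 nt, which had 62.7 and 95.4 TPM.

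Of the 13 pairs of related carriers 6 met the rule for a difference, which asked for 1 sign in both libraries and a mean beyond 2 SD. These were Slc25a4 over Slc25a5, Slc25a4 over Slc25a31, Slc25a12 over Slc25a13, Slc25a36 over Slc25a33, Slc25a39 over Slc25a40 and Slc25a20 over Slc25a29. In all 6 the higher member was read in both hearts, and in 3 of them the lower member had 0 counts in at least 1 heart. Slc25a12 over Slc25a13 holds for all models of each gene together and is reversed on coding models, as given above. The other 7 pairs did not meet the rule, among them Slc25a22 and Slc25a18 with 0 counts throughout. Slc25a11 over Slc25a10 and Slc25a42 over Slc25a16 had 1 sign in both hearts, but a mean within 2 SD. For Slc25a42 and Slc25a16 the log2 ratio was 4.05 in heart 1 and 1.19 in heart 2, and for Slc25a28 and Slc25a37 it was 3.44 and 0. For Slc25a1 and Slc25a10 it was 0.06 in heart 1 and −5.48 in heart 2.

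**Figure D4:**
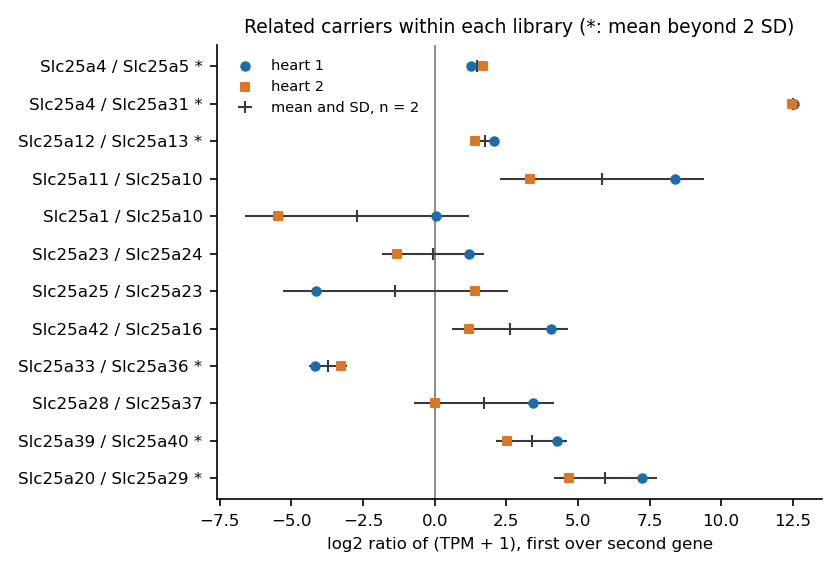
Log2 ratio of (TPM + 1) of the first over the second gene, for 12 pairs of related carriers with reads, in heart 1 (circles) and heart 2 (squares), with the mean and SD of the 2 libraries. Stars mark the 6 pairs with 1 sign in both libraries and a mean beyond 2 SD, and 3 of the other pairs have points on either side of 0.

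Between the libraries, agreement depended on level. By unscaled TPM, all 9 members averaging at least 30 TPM were within 2-fold. So were 57.4% of mouse genes at 30 to 100 TPM, 75.7% at 100 to 300 TPM, 85.9% at 300 to 1000 TPM and 90.1% above that. Of the 9, Slc25a12 was at −0.96 for heart 2 over heart 1 on the log2 scale, which TMM or DESeq2 scaling moved beyond 2-fold. At 10 to 30 TPM 5 of 12 members were within 2-fold, beside 39.0% of mouse genes, and at 3 to 10 TPM 1 of 7, beside 18.8%. The SD per library over mouse genes was 2.05 on the log2 scale at 10 to 30 TPM, 1.21 at 30 to 100 TPM, 0.66 at 100 to 300 TPM and 0.44 at 1000 TPM or more. Accordingly, of the 24 neighbouring pairs in the order of the 25 members averaging at least 5 TPM, 3 were told apart, which asked for 1 sign in both libraries and a log2 ratio beyond that SD in each of them (the larger SD where the genes lie in different ranges). These were Slc25a4 above Slc25a5, Slc25a3 above Slc25a11, and Slc25a20 above Slc25a13. The SD is that of a single gene's value, and a ratio of genes carries the spread of both, so that the rule is lenient. Slc25a20 above Slc25a13 was only just beyond it in heart 1, at 1.33 against 1.21. Slc25a5 stood above Slc25a3 in both hearts, by 1.63 in heart 1 and by 0.28 in heart 2, where the SD was 0.44, and Slc25a11 above Slc25a12, by 0.45 in heart 1, where the SD was 0.66, and by 1.94 in heart 2. These, Slc25a12 and Slc25a39, Slc25a39 and Slc25a20, and all neighbours from Slc25a13 down to Slc25a32 at 5.85 TPM were not told apart in this way.

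Among those 25 members 10 were more than 2-fold apart on the log2(TPM + 1) scale, or 40%, beside 54.5% of protein-coding genes with the same mean. Of the 25, 7 were over 2-fold higher in heart 2, beside 27.8% of those protein-coding genes, and 3 in heart 1, beside 26.8%. The members with the largest ratios toward heart 2 were Slc25a10 (5.57), Slc25a26 (5.02), Slc25a14 (4.28), Slc25a38 (4.21) and Slc25a25 (3.66). Toward heart 1, Slc25a23 had the largest ratio, at −1.89, and Slc25a15 was at −1.11, while Slc25a12, at −0.96, and Slc25a36, at −0.94, were under 2-fold. With TMM or DESeq2 scaling 12 members were more than 2-fold apart, 7 toward heart 2 and 5 toward heart 1, the latter including Slc25a12 and Slc25a36.

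Altogether 8 members were read in one library and had fewer than 3 counts in the other. Heart 1 lacked Slc25a10, Slc25a26, Slc25a14, Slc25a38, Slc25a16 and Slc25a29, and heart 2 lacked Slc25a28 and Slc25a45. The reads on the other side were not few. Slc25a14 had 760 counts and Slc25a16 747 in heart 2 and 0 in heart 1, which is at least 307-fold and at least 302-fold higher over 3 counts per library, with each library scaled to its mouse counts. Slc25a28 had 450 counts in heart 1 and 0 in heart 2, at least 124-fold higher in heart 1. By this measure Slc25a45 was at least 111-fold higher in heart 1 and Slc25a29 at least 90.8-fold higher in heart 2. These limits cover the counting error of reads only, since amplified copies of 1 molecule are not separated. Heart 1 had under 3 counts for 5 of the 18 members at 5 to 50 TPM in heart 2 (27.8%), beside 21% of protein-coding genes at that level. Heart 2 had under 3 counts for 2 of the 13 at 5 to 50 TPM in heart 1 (15.4%), beside 20.4%. The members' shares lay above that of other genes of their level in heart 1 and below it in heart 2, and rest on few genes. Absence of a transcript from a pup and its loss in the aliquot or the amplification cannot be told apart.

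**Figure D5:**
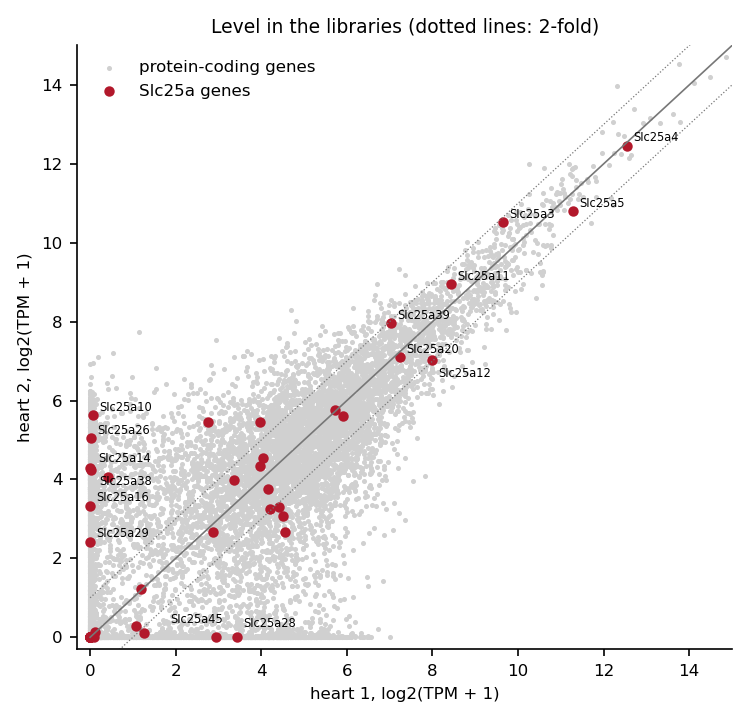
Level in heart 2 against heart 1, both as log2(TPM + 1), for protein-coding genes (grey) and Slc25a genes (red), with a solid line at equality and dotted lines at 2-fold. The members from Slc25a20 upward lie within 2-fold, and the 8 labelled genes along the axes were read in 1 library and had under 3 counts in the other.

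Transcript models could be compared for the 20 members read in both libraries with a mean of 5 TPM or more. Of these 4 had 1 transcript in the tables, and 11 of the 16 with several had the same leading model in both hearts. Besides Slc25a51 and Slc25a40, those that changed model included Slc25a42 and Slc25a36. Slc25a42 was 54.2% on the coding Slc25a42-202 in heart 1 and 49.3% on the retained-intron model Slc25a42-205 in heart 2, and Slc25a36 was 41.8% on Slc25a36-201 in heart 1 and 99.2% on Slc25a36-202 in heart 2. Slc25a4 had 75.1% of its TPM on the coding Slc25a4-201 in heart 1 and 81.5% in heart 2, and the rest on Slc25a4-202, a retained-intron model. The high members therefore kept their model, and those that changed it had means of 52.8 TPM or less.

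Genes that act with the carriers were read as follows, where 28.4% of all protein-coding genes were read in both libraries. Carriers reach the inner membrane through the small TIM chaperones and the TIM22 complex, and 9 of 10 genes of this route were read in both libraries, with a median of 59.4 TPM. The highest were Timm8b, with 128 TPM in heart 1 and 233 TPM in heart 2, Timm10b, with 110 and 145 TPM, Timm13, with 116 and 108 TPM, and Timm8a1, with 97.6 and 77.7 TPM. The lowest was Timm29, a subunit of that complex, with 0.0208 and 0.215 TPM. All 3 porins, through which metabolites cross the outer membrane before they meet a carrier, were read at like levels, Vdac2 with 398 and 604 TPM, Vdac1 with 565 and 435 TPM, and Vdac3 with 537 and 455 TPM. On the TPM scale the means of the porins lay below that of Slc25a3 and above that of Slc25a11. The order against Slc25a11 did not hold in each library, since Slc25a11, at 498 TPM in heart 2, was above Vdac1 and Vdac3 there.

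Of 12 inner membrane transporters outside the family 7 were read in both libraries (beside 28.4% of all protein-coding genes), with a median of 13.4 TPM. The subunits of the pyruvate carrier were highest, Mpc1 with 693 TPM in heart 1 and 565 TPM in heart 2 and Mpc2 with 402 and 546 TPM. Smdt1, a subunit of the calcium uniporter, had 236 and 239 TPM, and Sfxn4 had 0 counts. Of the 5 relatives of the family with other names 3 were read in both. Mtch2, an outer membrane relative that inserts proteins, had 357 and 245 TPM, Ucp2 had 181 and 186 TPM, and Mtch1 had 45.4 and 29.0 TPM. Ucp1, the uncoupling protein of brown fat, and Ucp3, that of muscle, had 0 counts in both hearts.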

How the data were processed

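Each library had its own deposited gene table and transcript table. Per the file headers, both kinds give expected counts (estimated counts, which need not be whole) and TPM. Further deposited columns, per the file headers, are posterior means, the posterior SD of each count, and lower and upper TPM bounds, signal values whose interval level is not stated. The deposited transcript tables give each isoform's percent of its gene. Notes deposited with the tables name mm10 and GENCODE M4. The aligner is not given in the sources used here, nor is the quantifier. Reads were amplified by a Smart-seq protocol after mirVana extraction, per the labels.

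TPM was rescaled to 1000000 over 43346 mouse genes. Spike-ins (2.40% and 1.27% of counts) and 26248 rows named by a bare number were left out. GENCODE M21 gave names, types and positions, matched by identifier without version (42462 matched, 884 did not), so that a gene model can differ from that counted. The libraries differed beyond the counting error of reads (chi-square 794 per gene over 11666 genes). That measure takes amplified copies of 1 molecule as separate reads, so it leaves out the sampling of molecules and cannot show that the samples differ. The libraries count as 2 samples because the labels name separate pups. Labels give 1 group of 2, so no test was made: values are means and SDs, ratios are on log2(TPM + 1), which understates changes of low genes, and limits cover counting error only. To get an SD per library, the log2 ratio of the hearts was taken over all mouse genes in a range of mean TPM, and its SD was divided by root 2.

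Members, lists, pairs and rules were chosen with earlier results of these data known. Values are printed for members averaging at least 50 TPM, members of the pairs, the highest of each substrate group, members read in 1 library with under 3 counts in the other, the 5 largest ratios in each direction, and the 4 highest and the lowest of each list. A few others, named to complete a group or a list, were picked with values in view. A few genes that these rules name, and 1 pair, are not reported here. Alternatives were another threshold, pseudocount, filter or unit, TMM factors of edgeR 4.0.16, size factors of DESeq2 1.42.0 (both after rounding expected counts to whole numbers), and omission of each replicate. Pseudogene copies were aligned with minimap2 2.31-r1302 (90% identity over 50% of the length or more). Coding sequences and exons were aligned with Biopython 1.88. Other tools were Python 3.11.15, numpy 2.4.6, pandas 2.3.3, scipy 1.17.1, matplotlib 3.10.9 and R 4.3.3.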

Additional observations from a re-analysis of the deposited data

How the results depend on the processing

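The number of members read in both libraries, 21, ranged from 20 to 23 over thresholds of 0.1 and 5 TPM, counts per 1000000, posterior means and a minimum of 10 counts, and single libraries read 25 to 28. The family's share of 1.04% was 1.34% by expected counts, 1.02% by posterior mean TPM and 1.01% by TPM as deposited, and 1.03% to 1.05% in single libraries. Expected counts are not divided by length, deposited TPM includes spike-ins, and the cause of the shift in posterior means was not tested. The count of members more than 2-fold apart, 10, was 3 (all higher in heart 2) among the 12 averaging at least 20 TPM and 50 counts, a setting that leaves out low genes by construction, and 10 to 14 under the other settings. TMM factors shifted every log2 ratio of heart 2 over heart 1 by −0.07 and DESeq2 size factors by −0.11, which left the members' median of 0.39 at 0.32 and 0.28. The SD per library with a pseudocount of 0.1 TPM was 3.74 in place of 2.11 at 3 to 10 TPM and 3.12 in place of 2.05 at 10 to 30 TPM, since a smaller pseudocount widens ratios of low genes. Exon A of Slc25a3 took 86.1% by expected counts, and 87.2% to 89.2% in single libraries. Between 5 and 7 pairs met the rule for a difference: Slc25a20 over Slc25a29 did not with a pseudocount of 0.1 TPM (7.74 ± 3.96), and Slc25a22 over Slc25a18 did in posterior means alone (1.46), where expected counts were 0. Mean ratios changed sign with 1 library left out in 3 pairs that do not meet that rule: Slc25a1 over Slc25a10 ran from −5.48 to 0.057, Slc25a23 over Slc25a24 from −1.31 to 1.20, and Slc25a25 over Slc25a23 from −4.14 to 1.40, with the positive value without replicate 2 for the first pair and for Slc25a23 over Slc25a24, and without replicate 1 for the last. Counts for the carrier import, porin and carrier homolog lists were the same in single libraries and at 5 TPM, and other inner membrane transporters numbered 6 at 5 TPM and 8 to 10 in single libraries. No paired analysis was possible because the labels give 1 group, so that no groups share replicate numbers. Pup, RNA aliquot and amplification cannot be told apart with 1 library a pup.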

Other observations

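Some members of the family lie side by side on a chromosome, a pattern chosen after the values were seen. Neighbouring members within 50 kb of each other form 4 pairs, and in all 4 one of the genes had 0 counts in both libraries. Of all 47 members 13 (27.7%) had 0 counts in both, a share of single genes that cannot be set against a count of pairs. Nothing is therefore read from this count. On chromosome X, Slc25a5, at 2504 TPM in heart 1 and 1775 TPM in heart 2, lies 18448 nt from Slc25a43. On chromosome 3, Slc25a24, at 9.25 and 14.8 TPM, lies 6461 nt from Slc25a54 on the same strand. On chromosome 17, Slc25a23, at 22.5 and 5.36 TPM, lies 2056 nt from Slc25a41, which is assigned to the same ATP-Mg/phosphate group. On chromosome 12, Slc25a29, with 0 counts in heart 1 and 4.38 TPM in heart 2, lies 162 nt from Slc25a47 on the opposite strand. No test was made of this pattern.

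Pseudogene copies of other members were rarely read. Gm13904, a copy of Slc25a3, had 0.302 TPM in heart 1 and 0.705 TPM in heart 2, or 0.0375% and 0.0482% of gene and copy together. Gm5066, a copy of Slc25a40, had 0 and 0.828 TPM, and Gm13217, a copy of Slc25a36, had 0 and 0.0716 TPM.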
